A study of Mus musculus with 12 samples.

Results

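The rows described here are the microRNA genes of a gene expression table from growing mouse oocytes: every row whose symbol is Mir or Mirlet7 followed by a number and whose value was above 0 in at least 2 of 12 libraries. Of the 23235 rows of the table, 615 were microRNA gene rows, 126 of these were above 0 in at least 1 library, and 52 met the rule. The oocytes came from mice of day 14, with Mtr4 intact (wild type, WT) or absent (Mtr4-null), and each oocyte had been divided into nucleus and cytoplasm by micromanipulation. Total RNA of 10 nuclei or 10 cytoplasms per sample was depleted of ribosomal RNA and sequenced, with 3 libraries each of WT nucleus, Mtr4-null nucleus, WT cytoplasm and Mtr4-null cytoplasm. Which strain, allele and means of deletion were used is not given in the sources used here. The series speaks of duplicates but labels 3 libraries for each group, without saying whether the 3 stem from different mice, so each p-value reflects only how far these libraries differ, which may be technical.

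A microRNA gene is transcribed as part of a long primary transcript, often inside the intron or exon of a host gene. In the nucleus Drosha and its partner Dgcr8 cut a short hairpin out of that transcript, Xpo5 carries the hairpin to the cytoplasm, and Dicer1 trims it to the mature microRNA that an Argonaute protein holds. The mature strand finds its targets mainly through its seed, bases 2 to 8. MTR4 is the RNA helicase that passes RNA to the nuclear exosome, which degrades by-products and unprocessed RNA in the nucleus. Growing mouse oocytes are known to hold mature microRNAs that repress their targets little.

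The values are FPKM as deposited by the authors, a fragment count scaled by row length and by library size. The libraries were made from cDNA of 300 to 400 bases and read as pairs of 150 bases. The members of known length outside Mir17hg were 63 to 141 bases long (median 84.0, 49 rows, GRCm38), and 44 members had a RefSeq hairpin. A fragment counted in such a row therefore reached into the flanking RNA, and the values describe primary transcripts, host transcripts and flanking RNA, not mature microRNAs. Mir17hg, a long noncoding gene that carries the Mir17 to Mir92 hairpins, met the rule by its symbol and was the one member longer than a fragment.

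The RefSeq tables (GRCm38.p6) held mature sequences for 44 members, 60 sequences with 59 different seeds. The sequences below belong to some of the rows named in the comparisons, whether or not they passed a test. Others, such as that of Mir5122, are not shown. The last 3 are of members from known microRNA clusters or families of early development (miR-19a, miR-294 and miR-1197). Letters are 5′ to 3′ and capitals mark the seed.
mmu-miR-762: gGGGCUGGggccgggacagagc
mmu-miR-680: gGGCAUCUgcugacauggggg
mmu-miR-703: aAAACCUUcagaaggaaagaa
mmu-miR-3471: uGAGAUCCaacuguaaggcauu
mmu-miR-32-5p: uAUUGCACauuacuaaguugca
mmu-miR-32-3p: cAAUUUAGugugugugauauu
mmu-miR-365-3p: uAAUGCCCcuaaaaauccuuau
mmu-miR-365-2-5p: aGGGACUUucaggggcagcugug
mmu-miR-686: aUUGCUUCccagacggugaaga
mmu-miR-1905: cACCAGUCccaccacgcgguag
mmu-miR-22-3p: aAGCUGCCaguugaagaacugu
mmu-miR-19a-3p: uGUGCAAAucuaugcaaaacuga
mmu-miR-294-3p: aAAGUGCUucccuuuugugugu
mmu-miR-1197-3p: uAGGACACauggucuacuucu

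The seed GGCAUCU was the one seed shared by a pair of members, Mir680-1 on chr6:129691535-129691643 and Mir680-2 on chrX:144297790-144297899 (GRCm38, plus strand), which carry the same mature sequence. Fragments of such near-identical copies can be divided between rows by the counting, so both rows are uncertain. No sequence is shown for Mir1940 and Mir3096b.

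Whole-library facts that bear on the members are few. Skiv2l2, the gene of MTR4, had FPKM values of 6.06, 2.45 and 5.37 in the WT nuclei and of 21.1, 19.4 and 20.2 in the WT cytoplasms. It had FPKM values of 1.04, 0.315 and 0.700 in the Mtr4-null cytoplasms and of 7.98, 0.182 and 1.12 in the nuclei labelled Mtr4-null, so that the library labelled Mtr4-null nucleus 1 went against its label. Relative depth, read from the smallest values that libraries share, ran from 0.129 to 0.398 in the nuclei and from 0.520 to 1.558 in the cytoplasms, with WT cytoplasm 1 set to 1. For the library labelled Mtr4-null nucleus 1 it was uncertain (0.1467, or 0.440 by another route). Scarna2, a small nuclear RNA row, took 58.0% to 81.7% of the summed FPKM of each nucleus and at most 5.13% of each cytoplasm. The 10 oocyte markers were all detected in every group, with sums of 3380 to 12445 FPKM in the nuclei and 11585 to 17216 FPKM in the cytoplasms. The 12 granulosa cell markers summed to 26.4 to 120 FPKM in the nuclei and 94.2 to 141 FPKM in the cytoplasms. Mtr4-null nucleus 3 stood apart from the other nuclei and held both of those upper values, with the oocyte growth factor Gdf9 at 2504 FPKM against 728 to 1289 FPKM in the other nuclei, Nlrp5, a maternal effect gene, at 904 against 144 to 211 FPKM, and the lowest share of Scarna2. These values set it nearer the cytoplasms, and for that reason results are also given without it. Between genotypes in the nucleus the calls on Mir1893, Mir5122 and Mir680-1 held without it (limma adjusted p = 0.0226, 0.0422 and 0.0114). Mir3471-1 then passed as lower too, beside 2.97% of all genes.

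Most member rows rested on very few fragments. For each row length, FPKM multiplied by relative depth moved in equal steps, and 1 step was taken as 1 fragment. Among members in introns or between genes, 76 of 83 values of up to 20 steps were whole numbers of steps within 0.1 (91.6%). The smallest value of a length sets its step and is whole by construction. Without such values 62 of 69 were whole (89.9%, where the tolerance passes 20% of arbitrary values), and 46 of 46 where the step had been met at least 2 times. Of the 83 values, 30 were 1 step, 14 of these by construction, and 59 were 1 to 5 steps. Members in a host exon held whole steps in 35 of 81 values (43.2%), and in 11 of 31 (35.5%) where the step had been met at least 2 times. Only 15 of the 41 lengths had a step met at least 2 times. A step met once may be more than 1 fragment. The step did not fall steadily with length: it was 261 depth-scaled FPKM at both 70 and 141 bases, and 38.1 at 71 bases. The lengths are those of GRCm38, so the lengths counted by the authors on mm9 may differ for some rows.

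**Figure D1:**
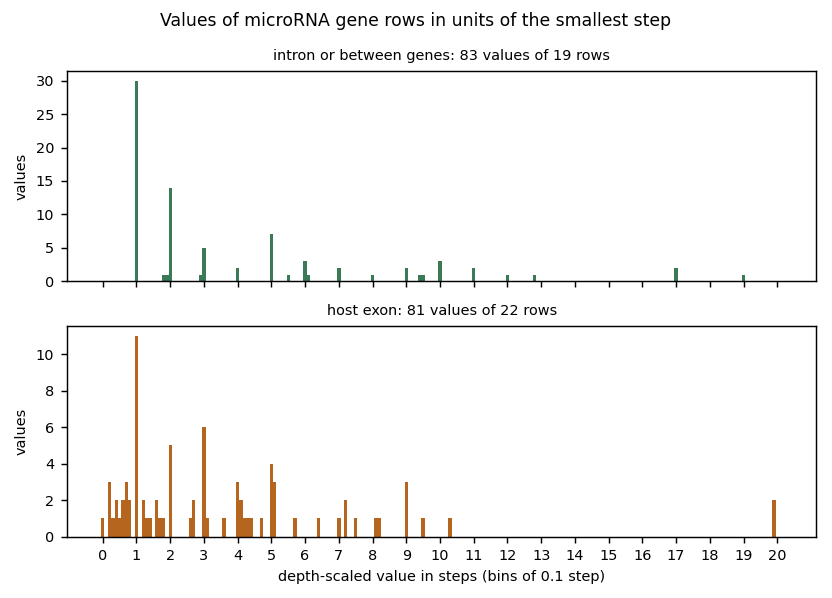
Histograms of member values in units of the smallest step, for members in introns or between genes (upper panel, 83 values) and in host exons (lower panel, 81 values). The x axis is the depth-scaled value in steps in bins of 0.1 step and the y axis is the number of values. In the upper panel 76 values fall within 0.1 of a whole number, with 30 at 1 step (14 of them whole by construction), while in the lower panel 35 do.

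The FPKM that a single step is worth was large and depended on length and depth. For a row of 70 bases it was 168 FPKM in the deepest library and 2025 FPKM in the shallowest. For a row of 109 bases it was 17.5 FPKM in the deepest library and 212 FPKM in the shallowest. The deepest library was 12.1 times as deep as the shallowest, so a large FPKM in a nucleus was often 1 fragment. Where a call rests on a group listed at 0 and the row's step is known, the limit that a count of 0 allows is given as the FPKM of 3 steps over that group, which covers counting error only.

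More of the members lay in host exons than anywhere else. In the GENCODE M21 annotation (GRCm38), 30 of the 52 members lay in an exon of a host gene (57.7%), 13 in an intron (25.0%) and 6 between genes (11.5%). Of all 615 microRNA rows, 21.5% lay in an exon, 51.7% in an intron and 24.9% between genes. Of the exonic members 13 lay in untranslated and 11 in coding parts of their host and 6 in exons of noncoding genes. The host ran on the same strand for 37 members and on the opposite strand for 6, and since the use of strand in the counting is not given, reads of an antisense pair cannot be told apart. Mir1940 and Mir3096b had no place in the annotation.

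Detection was broken up across libraries, as the heat map of all 52 rows shows. Mir1940 and Mir762 were above 0 in all 12 libraries. At the other end, 27 members were above 0 in 2 to 4 libraries, 14 of them in exactly 2, which is the limit of the rule. A further 74 microRNA rows were above 0 in a single library, 51 of them in a nucleus, and fell just outside the rule. Mir1197, Mir1839, Mir1938, Mir1949, Mir1982 and Mir19a were above 0 in nuclei only, Mir135a-1, Mir1892, Mir21, Mir3074-1, Mir365-2, Mir423 and Mir707 in cytoplasms only, and 39 members in both. Mir1892, Mir21 and Mir5131 never reached 1 FPKM; Mir21, which lies in an untranslated exon of Vmp1, peaked at 4.93e-04 FPKM.

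**Figure D2:**
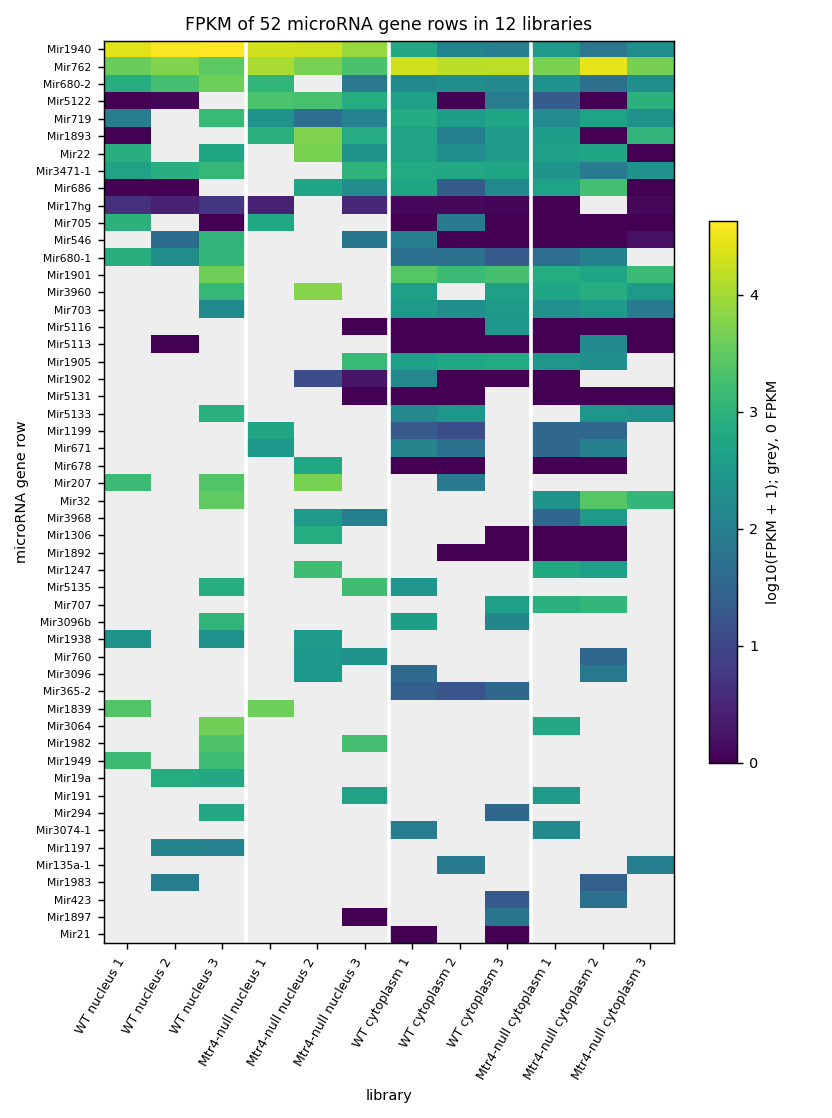
Heat map of the 52 member rows (y axis, ordered by the number of libraries above 0 and then by mean) in the 12 libraries (x axis, white lines between the 4 groups). Colour is log10(FPKM + 1) and grey is 0 FPKM. Only the first 2 rows, Mir1940 and Mir762, are filled in all 12 libraries, and the lowest 14 rows are filled in 2.

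The number of members above 0 per library was 18 ± 6.24 in the WT nuclei (SD, n = 3, as in the values that follow) and 16.3 ± 5.03 in the nuclei labelled Mtr4-null. It was 29.3 ± 1.53 in the WT cytoplasms and 29.0 ± 6.93 in the Mtr4-null cytoplasms. Between genotypes the exact two-sided permutation test gave p = 0.800 in the nucleus and p = 1 in the cytoplasm. Between compartments the exact permutation test gave p = 0.1 in WT, the smallest that 3 against 3 libraries allow, and p = 0.200 in Mtr4-null oocytes, with adjusted values over the 8 tests of 0.267 and 0.4. The lower counts in the nuclei went with their lower depth, whose part in them was not tested.

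The members together made up 2.57% ± 0.929 of the summed FPKM in the WT nuclei, 2.03% ± 0.490 in the nuclei labelled Mtr4-null, 5.14% ± 0.884 in the WT cytoplasms and 4.57% ± 3.15 in the Mtr4-null cytoplasms. The exact permutation p was 0.500 and 0.800 between genotypes (nucleus, cytoplasm) and 0.1 between compartments in each genotype (0.800, 0.914 and 0.267 after adjustment over 8). With Scarna2 and Rn45s, the row of the ribosomal RNA precursor, left out of the sum, the nucleus minus cytoplasm difference turned to 5.97 percentage points in WT and 2.67 in Mtr4-null oocytes.

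A pair of rows carried most of the members' FPKM. Mir1940 made up 65.3% of the members' mean sum in WT nuclei and 41.8% among nuclei labelled Mtr4-null. Mir762 made up 70.6% in the WT cytoplasms and 62.2% in the Mtr4-null cytoplasms. The next highest means were Mir680-2 in the WT nuclei (2183 ± 1632 FPKM), Mir1893 in the nuclei labelled Mtr4-null (2378 ± 2695 FPKM), Mir1901 in the WT cytoplasms (1945 ± 603 FPKM) and Mir32 in the Mtr4-null cytoplasms (1307 ± 1147 FPKM). The SD was close to or above the mean for Mir1893 and Mir32, whose 3 libraries differed widely.

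Mir1940 was a nuclear row in both genotypes. It had FPKM values of 26275, 40370 and 42328 in the WT nuclei and of 611, 120 and 97.2 in the WT cytoplasms. The nuclei labelled Mtr4-null held FPKM values of 19362, 18743 and 8219 and the Mtr4-null cytoplasms FPKM values of 321, 67.4 and 185. The nuclei stood above the cytoplasms in every library, as libraries of the compartments did without overlap, in either direction, for 73.5% of all genes tested in WT and 41.7% in Mtr4-null oocytes. Nucleus minus cytoplasm was 7.52 ± 0.70 in WT (log2 difference on the log2(FPKM + 1) scale ± SE, as in all differences that follow; limma adjusted p = 5.09e-06) and 6.49 ± 0.70 in Mtr4-null oocytes (adjusted p = 7.94e-05). All 3 nuclei labelled Mtr4-null were below all 3 WT nuclei, but the difference of -1.30 ± 0.70 did not pass the test (adjusted p = 0.353). In that comparison 12.9% of all 13157 genes tested had groups that did not overlap.

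Mir762, on chr7:127708487-127708562 (GRCm38, plus strand), lies antisense within a coding exon of Bcl7c, a subunit of BAF chromatin remodelling complexes. It had FPKM values of 19612, 13804 and 14902 in the WT cytoplasms, or 127.4, 139.7 and 136.6 steps, and was the row with the most fragments among the members with a known step. The WT nuclei held FPKM values of 3638, 5523 and 2864, which was 3.1 to 5.1 steps. The Mtr4-null cytoplasms held FPKM values of 4926, 28612 and 4727 and the nuclei labelled Mtr4-null FPKM values of 10779, 4908 and 1988, so that the genotypes overlapped in each compartment. Nucleus minus cytoplasm was -2.04 ± 0.77 in WT (adjusted p = 0.0340) and -0.89 ± 0.77 in Mtr4-null oocytes (adjusted p = 0.336). The Bcl7c row gave -2.05 ± 0.31 and -1.17 ± 0.31 in the same comparisons (adjusted p = 2.98e-04 and 0.0337). The WT call on Mir762 was lost with the pseudocount of 0.1, without a filter, and with 2 of 3 other scalings, where the difference came down to as little as -0.92, and without WT nucleus 1 or 3 or any 1 of the WT cytoplasms.

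**Figure D3:**
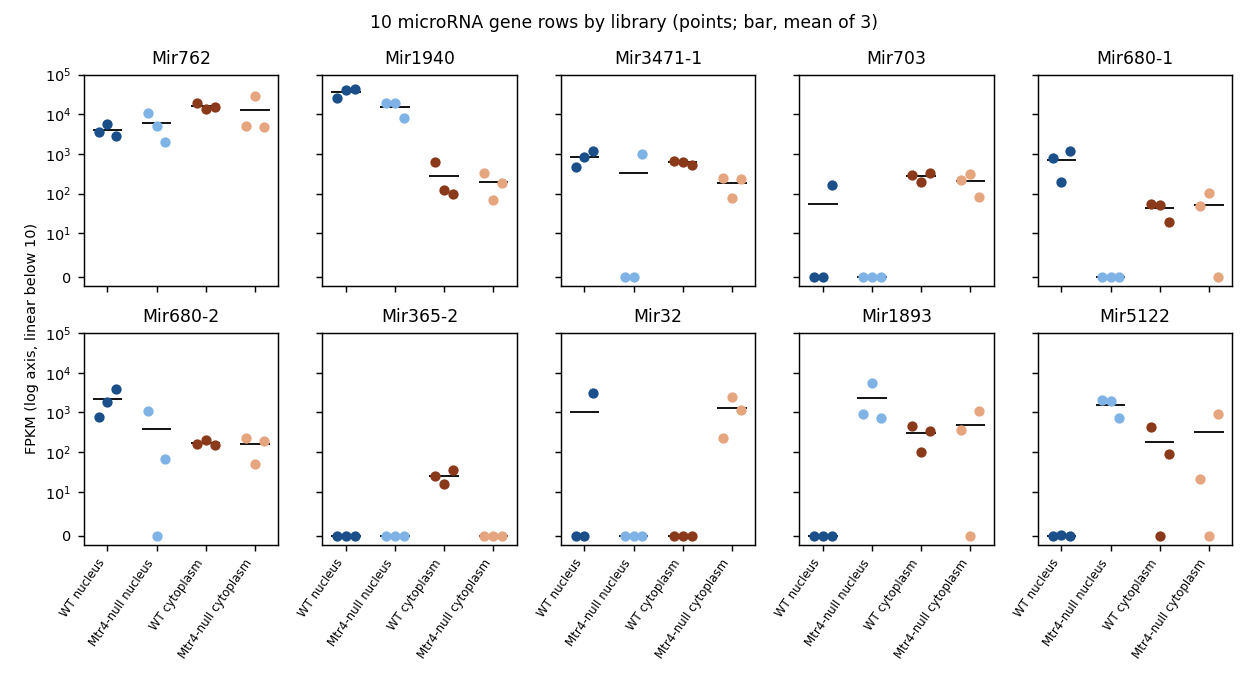
FPKM of 10 member rows in each library (y axis, logarithmic and linear below 10; points, libraries; bars, means of 3) by group (x axis). Mir1940 lies at 8219 FPKM or more in all nuclei and at 611 or less in all cytoplasms, Mir365-2 is above 0 in the WT cytoplasms alone, and Mir680-1 is at 0 in all 3 nuclei labelled Mtr4-null.

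The first question of the design is what differs between the genotypes within the nucleus, where MTR4 acts. Of the 52 members, 31 had at least 1 FPKM in at least 3 libraries and were tested, and 3 of them passed the threshold (limma, Benjamini-Hochberg adjusted p under 0.05), against 2.26% of all 13157 genes tested (0.517% higher and 1.75% lower). Mir1893 and Mir5122 were higher and Mir680-1 was lower in the nuclei labelled Mtr4-null. The median of the tested members was 0.00, beside 0.04 over all genes tested. Since FPKM is a share of a library, fewer cells giving an RNA and less RNA per cell cannot be told apart here.

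Mir1893, in a coding exon of Epc1 (a subunit of the NuA4 histone acetyltransferase complex), had FPKM values of 901, 5488 and 744 in nuclei labelled Mtr4-null but of 0.00370, 0 and 0 in the WT nuclei. In steps these were 1.4, 7.2 and 3.0 against 0.0 in each WT nucleus. The groups did not overlap, and the fitted difference was 10.59 ± 1.75 (adjusted p = 0.00682). It depends on the pseudocount and is no fold (13.90 with a pseudocount of 0.1). The cytoplasms held FPKM values of 458, 99.6 and 349 in WT and FPKM values of 370, 0.00486 and 1095 in Mtr4-null oocytes, a difference of -1.77 ± 1.75 (adjusted p = 0.850). The host row Epc1 stood at 23.4 ± 5.53 FPKM in the WT nuclei and at 48.9 ± 26.7 FPKM in the nuclei labelled Mtr4-null, a difference of 0.92 ± 0.36 that did not pass the test (adjusted p = 0.186).

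Mir5122 had FPKM values of 2042, 1941 and 731 in the nuclei labelled Mtr4-null. The WT nuclei held FPKM values of 1.19e-04, 0.225 and 0. The fitted difference was 10.38 ± 2.03 (adjusted p = 0.0171), with groups that did not overlap, and was lost with a pseudocount of 0.1 (adjusted p = 0.0584), with library weights (adjusted p = 0.325) and without WT nucleus 1 or WT nucleus 3. Both Mir1893 and Mir5122 are exonic rows whose values held fractions of a step.

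Mir680-1, which lies between genes, went the other way: FPKM values of 785, 191 and 1153 in the WT nuclei, equal to 5, 1 and 7 steps, and 0 in all 3 nuclei labelled Mtr4-null. Taken over the group, the WT nuclei held 735 FPKM per unit of depth and a 0 in the nuclei labelled Mtr4-null allows up to 122 FPKM. The fitted difference of -9.12 ± 1.21 (adjusted p = 0.00216) is no fold. Its sequence twin Mir680-2 had FPKM values of 755, 1833 and 3961 in the WT nuclei and of 1073, 0 and 66.0 in the nuclei labelled Mtr4-null, a difference of -5.41 ± 1.62 that did not pass the test (adjusted p = 0.0882). In the cytoplasms Mir680-1 had FPKM values of 54.6, 52.5 and 19.3 in WT and FPKM values of 48.6, 105 and 0 in Mtr4-null oocytes (adjusted p = 0.861).

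Other members with large fitted differences in the nucleus did not pass in the main fit. Mir3471-1 had FPKM values of 459, 835 and 1203 in the WT nuclei and of 0, 0 and 1002 in those labelled Mtr4-null (-6.27 ± 1.78, adjusted p = 0.0737). It passed as lower without Mtr4-null nucleus 3 (beside 2.97% of all genes) and with median-of-ratios scaling (beside 9.59%). Mir686, in a coding exon of Psmb5, was under 0.01 FPKM in each WT nucleus, against 0, 551 and 187 FPKM in those labelled Mtr4-null (5.55 ± 2.37, adjusted p = 0.228). Psmb5, a catalytic subunit of the proteasome, was the 1 of 37 tested host genes that passed, at 18.2 ± 8.86 FPKM in the WT nuclei and 68.7 ± 32.8 FPKM in the nuclei labelled Mtr4-null (1.86 ± 0.45, adjusted p = 0.0425). Its call was lost in most of the other fits, among them those without Mtr4-null nucleus 3 (adjusted p = 0.0785), Mtr4-null nucleus 2, WT nucleus 1 or any 1 cytoplasm and that of the nuclei alone (adjusted p = 0.428). With the library labelled Mtr4-null nucleus 1 left out, 7 members passed, beside 10.2% of all genes: Mir1893, Mir5122, Mir3968, Mir686 and Mir760 were higher and Mir680-1 and Mir680-2 lower. Without both that library and Mtr4-null nucleus 3, 11 members passed, beside 30.1% of all genes, with 1 library left in the group and assumed to vary like the others.

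In the cytoplasm 2 of the 31 tested members passed the threshold between genotypes, against 1.88% of all genes tested (1.17% higher and 0.714% lower). Mir32 was higher and Mir365-2 lower in the Mtr4-null cytoplasms. The median difference of the members was -0.39, beside 0.00 over all genes, with 29.0% of the members above 0.

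Mir32, on chr4:56895229-56895298 (GRCm38, minus strand) in an intron of Tmem245 (listed here as D730040F13Rik), had FPKM values of 233, 2516 and 1172 in the Mtr4-null cytoplasms, which was 1, 5 and 3 steps. It was at 0 in all 3 WT cytoplasms, where a 0 allows up to 198 FPKM against 1018 FPKM per unit of depth in the Mtr4-null cytoplasms. The fitted difference was 9.79 ± 2.09 (adjusted p = 0.0251) and is no fold. The call was lost when any 1 of the 6 cytoplasms was left out (adjusted p up to 0.126 over all alternatives), without a filter, and with 2 of 3 other scalings. In the nuclei Mir32 was above 0 in WT nucleus 3 alone, at 3157 FPKM or 2 steps. The host row D730040F13Rik was at 24.4 ± 1.14 FPKM in the WT cytoplasms and 25.7 ± 5.96 FPKM in the Mtr4-null cytoplasms (0.05 ± 0.39, adjusted p = 1). Rn45s, at FPKM values of 1880, 805 and 332 in the WT cytoplasms and 0 in all nuclei, had FPKM values of 2211, 20429 and 9796 in the Mtr4-null cytoplasms, in the same order of libraries as Mir32; its part in the result was not tested.

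Mir365-2, which lies between genes on chr11:79726400-79726511 (GRCm38, plus strand), was the one member above 0 in all 3 libraries of a single group and at 0 in the other 9. The WT cytoplasms held FPKM values of 24.3, 15.6 and 34.4, which was 1, 1 and 2 steps. Its fitted difference was -4.62 ± 0.31 (adjusted p = 3.01e-06) and is no fold. A 0 in the Mtr4-null cytoplasms allows up to 31.5 FPKM, above the 24.5 FPKM per unit of depth of the WT cytoplasms, so a difference between the genotypes was not detectable at this depth. In the WT nuclei a 0 allows up to 151 FPKM. Mir365-2 was also the 1 member that passed the test of a difference in genotype effects between the compartments (4.62 ± 0.44, limma adjusted p = 1.72e-04). That test passed 0.122% of all genes tested, 0.0228% above and 0.0988% below 0. The value is the cytoplasm difference with its sign turned, carried by the same 4 fragments. No genotype effect could be seen in the nuclei, where a 0 allows up to 108 FPKM in those labelled Mtr4-null. The row entered the fit only through the 3 WT cytoplasms.

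Several better covered rows showed no passing difference between the cytoplasms. Mir3471-1, between genes on chr4:10845500-10845630 (GRCm38, minus strand), had FPKM values of 678, 614 and 537 in WT (17, 24 and 19 steps) and of 248, 76.7 and 238 in Mtr4-null oocytes (7, 1 and 4 steps). The groups did not overlap, as held for 43.9% of all genes tested in the cytoplasm, and the difference of -1.87 ± 1.78 did not pass (adjusted p = 0.841). Leaving out Mtr4-null nucleus 3, whose 1002 FPKM lay far from the 0 of the others, brought Mir3471-1 past the threshold in the cytoplasm, and so did a fit of the cytoplasms alone, in which 23.2% of all genes passed. Mir719, in a coding exon of the nucleoporin gene Nupl1, had FPKM values of 712, 395 and 522 in WT and of 168, 480 and 224 in Mtr4-null oocytes (-1 ± 1.64, adjusted p = 0.942). Mir22 had FPKM values of 454, 197 and 338 in WT and of 422, 537 and 2.81e-04 in Mtr4-null oocytes (-2.36 ± 2.93, adjusted p = 0.907). It was placed in an intron of Tlcd2, the longest same-strand gene that holds it. Its values held fractions of a step, among them 9.5 in WT cytoplasm 3 and 5.5 in Mtr4-null cytoplasm 2, as in exonic rows, so this place is uncertain. Tlcd2 itself was by far the most abundant host row, at 4075 ± 1094 and 1768 ± 835 FPKM in the same groups (-1.29 ± 0.54, adjusted p = 0.306).

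**Figure D4:**
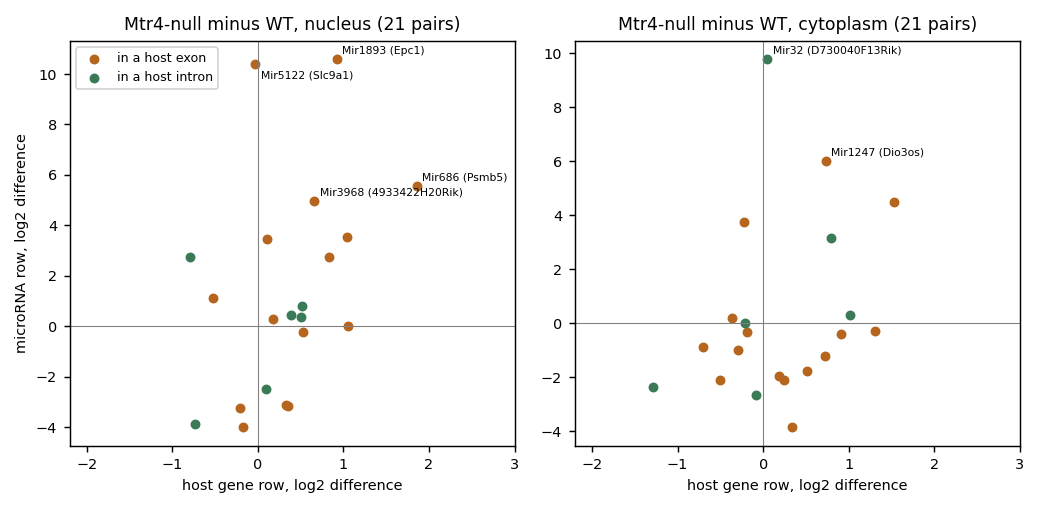
Mtr4-null minus WT log2 difference of each microRNA row (y axis) against that of its host gene row (x axis) in the nucleus (left) and cytoplasm (right), 21 pairs each. Colour marks members in a host exon or intron. The microRNA rows spread from -4 to 10.59 in the nucleus while their hosts stay between -0.79 and 1.86.

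Host rows and microRNA rows moved over different ranges. Across the 21 tested members with a tested host, Spearman's rho of the 2 differences was 0.43 in the nucleus and 0.33 in the cytoplasm between genotypes, with the same sign in 13 and 11 pairs. Between compartments it was 0.04 in WT and -0.20 in Mtr4-null oocytes, with the same sign in 12 pairs each. These are descriptions across rows that share libraries, depth and, for exonic members, fragments. In the cytoplasm the microRNA rows ranged from -3.85 to 9.79 and the hosts from -1.29 to 1.53.

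Between nucleus and cytoplasm of WT oocytes 12 members passed the threshold, against 57.1% of all genes tested. Higher in the nucleus were 4 members (background 12%), namely Mir1940, Mir1938, Mir680-1 and Mir17hg. Lower in the nucleus were 8 (background 45.0%), namely Mir1905, Mir1893, Mir686, Mir1901, Mir703, Mir5122, Mir365-2 and Mir762. Mir1893 and Mir5122, of 83 and 89 bases, held 0.0 steps in the WT nuclei. The WT cytoplasms held 279 and 142 FPKM of them per unit of depth. In rows of 82 and 90 bases (Mir1905 and Mir135a-1) a 0 in the WT nuclei allows up to 647 and 405 FPKM. By these limits a difference was not detectable for Mir1893 and Mir5122. The call on Mir5122 was lost under 6 of 9 alternatives and 10 of 13 fits with libraries left out, that on Mir686 under 4 of 9 and 5 of 13, and those on Mir1901 and Mir680-1 under 2 of 9 and 2 of 13 each. The members' median was -1.82, beside -0.90 over all genes tested; median-of-ratios scaling, which brings the median of all genes to 0.00, left the members' median at -1.19 and 7 members past the threshold (3 higher, 4 lower).

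Mir17hg, on chr14:115042879-115046727 (GRCm38, plus strand), is the primary transcript of the Mir17 to Mir92 cluster, whose microRNAs promote growth. It had FPKM values of 3.13, 1.66 and 4.73 in the WT nuclei and of 0.272, 0.240 and 0.193 in the WT cytoplasms (1.69 ± 0.42, adjusted p = 0.00438). The nuclei labelled Mtr4-null held FPKM values of 1.62, 0 and 2.48 and the Mtr4-null cytoplasms FPKM values of 0.0303, 0 and 0.254 (0.94 ± 0.42, adjusted p = 0.0802). The nucleus was above the cytoplasm throughout WT, while the Mtr4-null compartments overlapped at 0. Of its hairpins, Mir19a on chr14:115044000-115044081 was above 0 in WT nuclei 2 and 3 alone, at 727 and 629 FPKM, each 1 step.

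Mir703, on chr5:98475556-98475664 (GRCm38, minus strand), lies antisense in an intron of Cfap299, a gene of cilia and flagella (listed as 1700007G11Rik). It had FPKM values of 300, 193 and 329 in the WT cytoplasms, 11, 11 and 17 steps, and of 0, 0 and 165 in the WT nuclei, 1 step in all (-5.61 ± 1.34, limma adjusted p = 0.00374). The fitted difference is no fold. Per unit of depth the WT nuclei held 56.5 FPKM and the WT cytoplasms 268 FPKM. In Mtr4-null oocytes the cytoplasms held FPKM values of 219, 315 and 81.6 and the nuclei 0 throughout (adjusted p = 0.00557). There a 0 allows up to 122 FPKM against 201 FPKM per unit of depth in the cytoplasms. Its host row was at 0 in all WT libraries and at most 0.639 FPKM elsewhere, so this intronic row stood without host RNA in the table. Both calls held under every alternative run.

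Mir1905, antisense in a coding exon of Mex3a, an RNA-binding protein gene, had FPKM values of 417, 602 and 664 in the WT cytoplasms (4, 9 and 9 steps) and 0 in the WT nuclei. A 0 in those nuclei allows up to 647 FPKM, above the 577 FPKM per unit of depth of the cytoplasms. The row passed the test (adjusted p = 0.00461), but at this depth a difference was not detectable. Mir1938, in an intron of Ifrd1, was above 0 in WT nuclei 1 and 3 by 1 step each (229 and 241 FPKM) and at 0 in the cytoplasms, where a 0 allows up to 30.1 FPKM. Its call (limma adjusted p = 0.0358) was lost under 5 of 9 alternatives. Mir1938 entered the fit only through nuclei, the compartment where it was called higher, so the filter favoured that call. Mir680-1, at 710 ± 486 FPKM in the WT nuclei and 42.2 ± 19.8 FPKM in the WT cytoplasms, was higher in the nucleus by 3.83 ± 1.21 (adjusted p = 0.0155).

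In Mtr4-null oocytes 7 members passed between nucleus and cytoplasm, against 32.2% of all genes tested. Mir1940 and Mir5122 were higher in the nucleus (background 4.08%). Mir32, Mir1901, Mir703, Mir707 and Mir680-1 were lower (background 28.1%), each listed at 0 in all 3 nuclei. For Mir32 a 0 in those nuclei allows up to 1165 FPKM, above the 1018 FPKM per unit of depth of the cytoplasms. For Mir707 it allows 894 against 694 FPKM and for Mir680-1 122 against 47.2 FPKM, so by these limits a difference was not detectable in these 3 rows. The limits take the library labelled Mtr4-null nucleus 1 at a relative depth of 0.1467. At its other value of 0.440 those of Mir32 and Mir707 would fall below the cytoplasm values, so for these rows the point is not settled. Mir1901 has no known step. The call on Mir5122 was lost under 7 of 9 alternatives and 11 of 13 fits with libraries left out, and that on Mir680-1 under 5 of 9 and 8 of 13. Those on Mir1901 and Mir32 were lost under 1 and 0 of 9 and under 5 and 3 of 13. Mir707, in an untranslated exon of the mTORC1 substrate gene Akt1s1, had FPKM values of 893, 1159 and 0 in the Mtr4-null cytoplasms and 0 in the nuclei (limma adjusted p = 0.0439), a call lost under 7 of 9 alternatives and 12 of 13 fits with libraries left out. Mir707 entered the fit only through cytoplasms, the compartment where it was called higher, so the filter favoured that call. Without the library labelled Mtr4-null nucleus 1 the count was 3 (Mir1940, Mir760 and Mir703), beside 2.52% of all genes.

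The genes of the microRNA pathway were set beside these rows. Of the 28 listed processing genes that have a row, 24 were tested, and 0 passed between genotypes in either compartment (limma), with 2 at an unadjusted p under 0.05 in the nucleus and 1 in the cytoplasm. The latter was Srrt, the gene of a partner of Drosha and the cap-binding complex, which had FPKM values of 22.4, 18.1 and 16.7 in the WT cytoplasms and of 35.3, 51.0 and 32.2 in the Mtr4-null cytoplasms, with no overlap (adjusted p = 0.251). It passed as higher with only the libraries compared, beside 23.2% of all genes, and without Mtr4-null nuclei 1 and 3, beside 10.4%. The medians of the processing genes in nucleus and cytoplasm were 0.15 and 0.03. Drosha, the nuclease of the first cut, had FPKM values of 41.0, 35.6 and 41.9 in the WT cytoplasms and of 39.8, 23.9 and 32.7 in the Mtr4-null cytoplasms (-0.32 ± 0.40, adjusted p = 0.912). Dicer1 had FPKM values of 96.3, 115 and 109 and of 107, 91.5 and 97.6 in the same groups (-0.11 ± 0.34, adjusted p = 0.991). Dgcr8 had FPKM values of 17.6, 15.8 and 17.2 in WT and FPKM values of 20.6, 17.6 and 23.6 in Mtr4-null oocytes (0.27 ± 0.43, adjusted p = 0.940). Before rounding its genotypes did not overlap, as held for 43.9% of all genes tested in the cytoplasm. The transcript of Xpo5, the export carrier, differed by -0.07 ± 0.43 and that of Eif2c2, which encodes Argonaute 2, by -0.24 ± 0.44 (adjusted p = 1 and 0.951). When the library labelled Mtr4-null nucleus 1 was left out, Lin28b, an inhibitor of let-7 maturation, passed as lower in the nucleus, and without Mtr4-null nuclei 1 and 3, 7 processing genes did. With median-of-ratios scaling Eif2c3 and Lin28b passed as lower in the nuclei labelled Mtr4-null, and with quantile normalization Eif2c3 did. Without Mtr4-null nucleus 3, Hnrnpa1 passed as lower there, beside 2.97% of all genes.

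Between WT nucleus and cytoplasm 14 of the 24 processing genes passed, 1 higher and 13 lower, against 12% and 45.0% of all genes, and the median was -1.13 beside -0.90. The lower ones were Xpo5, Lin28a, Hnrnpa1, Ran, Khsrp, Tarbp2, Tnrc6a, Ddx6, Drosha, Adar, Ddx5, Dicer1 and Dgcr8, from -1.87 ± 0.43 for Xpo5 to -1.06 ± 0.43 for Dgcr8. Ddx17, an RNA helicase partner of Drosha, was the higher one, at FPKM values of 32.7, 13.1 and 36.4 in the WT nuclei and FPKM values of 7.62, 10.00 and 8.57 in the WT cytoplasms (1.43 ± 0.37, adjusted p = 0.00592). These directions are shares of a library: with median-of-ratios scaling 5 were higher (Adarb1, Ddx17, Eif2c2, Eif2c3 and Lin28b) and 2 lower (Lin28a and Xpo5), with a median of -0.06, and with quantile normalization 2 were higher and 3 lower. In Mtr4-null oocytes Ddx17 was again higher and 10 genes lower, against 4.08% and 28.1% of all genes, and with median-of-ratios scaling Ddx17 alone passed. That count moved with the nuclei used: 0 passed without the library labelled Mtr4-null nucleus 1 or with only the libraries compared (2.52% and 0.935% of all genes), and 20 passed, all lower, without Mtr4-null nuclei 1 and 3 (64.4% of all genes).

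The primary noncoding transcripts of microRNAs were higher in the nucleus of WT oocytes. Of the 6 listed noncoding host genes that have a row, 5 were tested, and all 5 were higher in the WT nucleus than in the WT cytoplasm, against 12% of all genes tested. These were Rian (2.25 ± 0.49, adjusted p = 0.00233) and Mirg (1.94 ± 0.40, adjusted p = 0.00169) of the imprinted Dlk1 to Dio3 region, Mir17hg, Dleu2 (1.37 ± 0.49, adjusted p = 0.0278), which holds Mir15a and Mir16-1, and Meg3 (1.06 ± 0.30, adjusted p = 0.00866). Rian had FPKM values of 8.79, 2.41 and 6.63 in the WT nuclei and FPKM values of 0.129, 0.415 and 0.488 in the WT cytoplasms. Mir17hg, Mirg, Dleu2 and Meg3 stayed below 1 FPKM in every cytoplasm. They met the filter only through nuclei, so the count of 5 against 12% was partly set by the filter. All 5 passed with median-of-ratios scaling too, and 3 (Mir17hg, Mirg and Rian) with quantile normalization. In Mtr4-null oocytes 0 of the 5 passed (limma; differences 0.52 to 0.94, 1 with an unadjusted p under 0.05), and 0 passed in the interaction (2 with an unadjusted p under 0.05), where Mir17hg and Rian passed below 0 without Mtr4-null nuclei 1 and 3, beside 11% of all genes. Between the cytoplasms 0 of the 5 passed (0 with an unadjusted p under 0.05), with differences from -0.18 to 0.55, while Dleu2 and Rian, whose groups did not overlap, passed as higher in Mtr4-null oocytes with only the libraries compared, beside 23.2% of all genes. Between genotypes in the nucleus the 5 differences ran from -1.28 to -0.15 and 0 passed, with 3 at an unadjusted p under 0.05 and Mirg at -1.28 ± 0.40 (adjusted p = 0.0966). Mirg passed as lower with median-of-ratios scaling, and Mir17hg and Rian did without Mtr4-null nuclei 1 and 3.

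**Figure D5:**
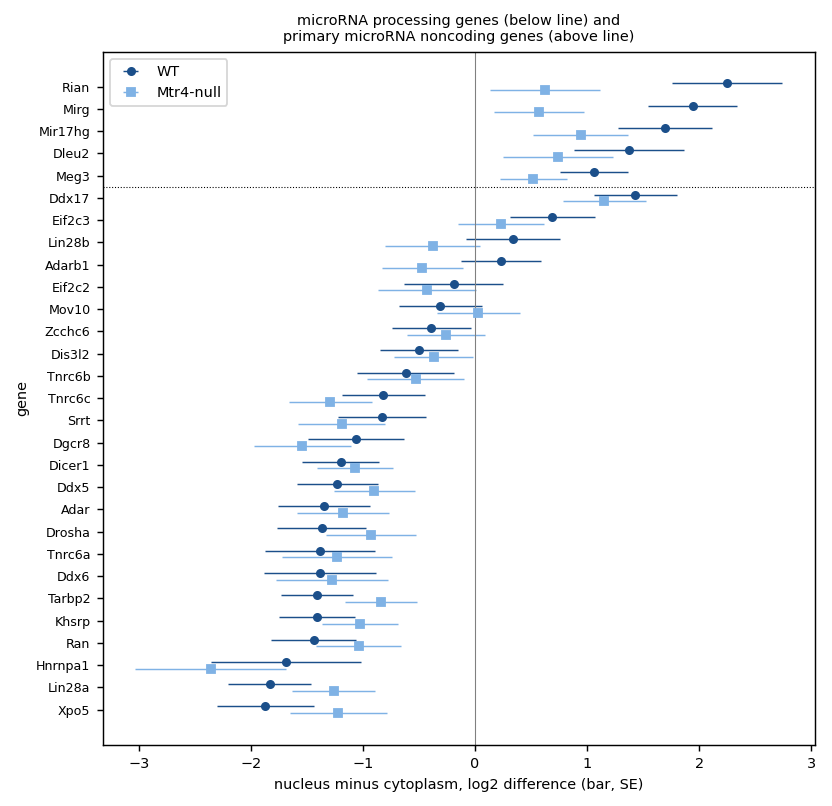
Nucleus minus cytoplasm log2 difference (x axis; bars, SE from limma) of 24 microRNA processing genes (below the dotted line) and 5 primary microRNA noncoding genes (above it), for WT (circles) and Mtr4-null oocytes (squares), on the FPKM scale. The 5 noncoding genes lie right of 0 in both genotypes and most processing genes left of 0, while with median-of-ratios scaling Adarb1, Ddx17, Eif2c2, Eif2c3 and Lin28b pass as higher in WT.

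Most rows of the developmental microRNA families were at 0 in every library, as were 489 of all 615 microRNA rows. Of 13 let-7 family rows 10 were at 0 in every library and none was a member; Mirlet7a-2, Mirlet7c-2 and Mirlet7d were each above 0 in 1 nucleus, at FPKM values of 373, 380 and 211. Of 15 rows of the Mir17 to Mir92 clusters 11 were at 0 everywhere and Mir19a was the member. In the Mir290 cluster, which marks early embryos and embryonic stem cells, 7 of 12 rows were at 0 and Mir294 was the member, at 629 FPKM in WT nucleus 3 and 34.1 FPKM in WT cytoplasm 3. Of 57 rows of the Dlk1 to Dio3 cluster 55 were at 0, and Mir1197, on chr12:109712317-109712436, showed 1 step each in WT nuclei 2 and 3 (127 and 110 FPKM). All 16 rows of the Sfmbt2 cluster were at 0. A row at 0 in this total RNA data says nothing of its mature microRNA.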

How the data were processed

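Total RNA of 12 libraries was measured as FPKM, which the authors deposited as 1 table for all libraries; TopHat2 2.1.1, Cufflinks 2.2.1 and the mm9 build are named per the submitters' processing notes. What each did, the gene models and whether strand was used: not given in the sources used here. The table holds no counts, so relative depth was read from values below 0.3 FPKM shared between libraries. Differences were fitted to log2(FPKM + 1) with limma 3.58.1 (R 4.3.3) as 1 model of 4 group means with a trended prior, over the 13157 genes that reached 1 FPKM in 3 or more libraries. P-values were Benjamini-Hochberg adjusted over all genes in each of 5 comparisons, with a threshold of 0.05. The fit was tested on simulated data. Library-level values were compared by exact permutation tests (scipy 1.17.1). Places come from GENCODE M21 and sequences and lengths from RefSeq, both on GRCm38, matched by symbol. Lengths of members without a RefSeq hairpin come from GENCODE. No mm9 coordinate was used.

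The members and gene lists were chosen with earlier results of these data known. Genes were named if they were members that passed the threshold in any comparison, members of highest mean in a group, members above 0 in all libraries or in 1 group only, hosts of these, the top members of 5 microRNA families, key processing genes, called processing genes, and all primary noncoding genes; a few other members were named after their values were seen. The alternatives were another pseudocount, other filters, 3 other scalings, library weights, a replicate block, only the libraries compared, and libraries left out. Counts of whole steps without the values that set them, and shares of all genes called under each alternative, were added after seeing the data. Replicate numbers are shared between groups, but correlations of same-numbered libraries ran from -0.16 to 0.30, so the numbers were not taken to pair them.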

Additional observations from a re-analysis of the deposited data

Results flagged for a closer look

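Mir365-2 was the member that passed the test of a difference in genotype effects between nucleus and cytoplasm (limma adjusted p = 0.000172, n = 3 libraries per group). The test cannot decide whether the effects differ, since an effect in the nucleus could not be seen at this depth. It was above 0 in 3 of 3 WT cytoplasms and in 0 of the other 9 libraries, on 4 steps in all, and the limit that a 0 allows in the WT nuclei, 151 FPKM, lies above its 24.5 FPKM per unit of depth in the WT cytoplasms.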

How the results depend on the processing

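The number of members past the threshold moved with several choices, and the cause was not tested. Between genotypes in the nucleus it was 3, and 1 with library weights (a fit that stopped before convergence), 2 to 7 with 1 library left out and 11 without Mtr4-null nuclei 1 and 3. In the cytoplasm it was 2, and 1 without a filter, with median-of-ratios scaling or with quantile normalization, 7 with library weights and 1 to 3 with 1 library left out. Between the WT compartments it was 12, 7 with median-of-ratios scaling and 8 to 13 with 1 library left out. Between the Mtr4-null compartments it was 7, 4 without a filter, 3 with median-of-ratios scaling, 4 with only the libraries compared, 2 to 8 with 1 library left out and 10 without Mtr4-null nuclei 1 and 3. For the difference of genotype effects it was 1, 3 with median-of-ratios scaling, 4 with library weights, 1 to 3 with 1 library left out and 6 without Mtr4-null nuclei 1 and 3; only the libraries compared gives no separate value there. With the replicate number as a block the 5 counts were 4, 2, 13, 9 and 1. The calls on Mir365-2, Mir1940, Mir703, Mir1905 and Mir17hg held under all alternatives run, as did that on Mir1893 between the WT compartments. For Mir365-2 and Mir1905 this adds no support, since a whole group was at 0 and a difference was not detectable at this depth. Nor does it for Mir1893, which held 0.0 steps in the WT nuclei, where a difference was not detectable either. With library weights Mir1893, Mir680-1 and Mir5122 all missed the threshold between genotypes in the nucleus (adjusted p = 0.105, 0.0851 and 0.325), and the 1 that passed was another member. The share of all genes called moved with these counts: with 1 library left out it ran from 0.950% to 10.2% (nucleus), 0.426% to 4.67% (cytoplasm), 43.5% to 65.4% (WT compartments), 1.35% to 64.8% (Mtr4-null compartments) and, for the difference of effects, 5 to 289 of 13157 genes. Without Mtr4-null nuclei 1 and 3 it was 30.1% between genotypes in the nucleus, 64.4% between the Mtr4-null compartments and 11% for the difference of effects. With library weights it was 1.16%, 36.5% and 7.30% for nucleus, cytoplasm and difference of effects, and with median-of-ratios scaling 1.65% for the cytoplasm, 29.2% and 4.89% for the WT and Mtr4-null compartments and 1.39% for the difference of effects. With quantile normalization it was 0.790% in the cytoplasm, and without a filter 0.712% there and 6.15% between the Mtr4-null compartments. With only the libraries compared it was 0.935% between the Mtr4-null compartments and 23.2% in the cytoplasm, where 3 members passed.

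The number of members would be 31 with at least 1 FPKM in at least 3 libraries. The genotype difference in members above 0 turned to 1.83 without WT nucleus 3 and to 1 without the library labelled Mtr4-null nucleus 1, and ran from -4.17 to 1.83 with 1 library left out. In the cytoplasm it turned to 0.500 without WT cytoplasm 1 and to 3.67 without Mtr4-null cytoplasm 3, within a range of -2.33 to 3.67. The genotype difference in percent of FPKM in the cytoplasm turned to 0.296 without Mtr4-null cytoplasm 1 and 0.376 without Mtr4-null cytoplasm 3, within a range of -2.39 to 0.376. With Scarna2 and Rn45s out of the sum, nucleus minus cytoplasm turned to 5.97 in WT and 2.67 in Mtr4-null oocytes. With same-strand hosts only (17 pairs), Spearman's rho was 0.44 and 0.30 between genotypes (nucleus, cytoplasm) and 0.07 and -0.25 between compartments (WT, Mtr4-null). Depth limits the nuclei most, where a single fragment is worth up to 2025 FPKM in a row of 70 bases.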
